A study of Mus musculus with 4 samples.

Results

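Nrf1 knockout was compared with control in the CM1 cardiomyocyte nuclei of infarcted neonatal mouse hearts. CM1 is the largest of the 4 cardiomyocyte populations named by the authors, and its nuclei were taken by the deposited population label. The library labelled KO-MI held 1308 CM1 nuclei and the library labelled WT-MI held 1415, together 2723 of the 8585 nuclei in the matrix and of its 6440 CM1 nuclei. Single-nucleus RNA sequencing (snRNA-seq) had been run on 4 libraries, with 1 for each genotype and surgery (KO-MI and WT-MI, KO-Sham and WT-Sham). KO pups were Nrf1fl/fl:aMHC-Cre and WT pups Nrf1fl/fl, so the floxed allele was common to all 4 groups, and Cre was under control of the aMHC (alpha myosin heavy chain) promoter of cardiomyocytes. No group carried Cre without the floxed allele, so Cre itself and the loss of Nrf1 cannot be told apart. Myocardial infarction (MI) was induced at postnatal day 3 by ligating the left anterior descending coronary artery, and Sham pups had the chest opened without ligation. Tissue below the ligation plane was collected 1 day later, and 4 to 6 hearts went into each library, so a library is 1 pool. The strain field of the labels gives a different name for each library (C57BL/6 for WT-MI, C57BL/7 for KO-MI, C57BL/8 for WT-Sham, C57BL/9 for KO-Sham), whereas the treatment text places all mice on C57BL/6.

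Nrf1 is the protein of Nfe2l1, a cap'n'collar (CNC) transcription factor that sits in the endoplasmic reticulum membrane and is normally extracted and degraded. When the proteasome is overloaded, the factor is cut loose, pairs with a small Maf protein in the nucleus and binds antioxidant response elements, and proteasome subunits and antioxidant enzymes are its best known targets. In cardiomyocytes of the newborn heart the proteasome removes damaged proteins, and antioxidant enzymes limit the oxidative load that follows ischemia. The matrix also lists a gene with the symbol Nrf1, which is nuclear respiratory factor 1, another gene.

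Counts were unique molecular identifiers (UMIs), each standing for 1 captured RNA molecule, summed over the CM1 nuclei of a library and expressed as counts per 1000000 (CPM). The sums were 5322066 UMIs for KO-MI and 5799715 for WT-MI, and the median nucleus held 4043.5 and 4042 UMIs. With 1 pool a side no test could be made, and every ratio below is the log2 of KO over WT with an exact 95% interval that covers counting error only. Defining cardiomyocyte genes (10, among them Tnnt2, Ttn and Ryr2) summed to 38075 CPM in KO-MI and 37902 in WT-MI. The share of UMIs from the mitochondrial genome was also close, with a median of 5.05% and 5.15%. A label that the authors transferred from an earlier reference named 1.30% of the KO-MI nuclei CM4 (0.76% to 2.07%) and 3.18% of the WT-MI ones (2.33% to 4.23%), and CM1 or CM3 for nearly all others. The Sham pair was used as a further pair that shares no library with the MI pair, but its depth was uneven, with a median of 2632 UMIs per nucleus in KO-Sham and 3749 in WT-Sham and a median mitochondrial share of 8.78% and 6.13%.

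The targeted gene was read first. Nfe2l1 (chr11:96817414-96829968 on GRCm38, minus strand) stood at 57.7 CPM in KO-MI and 44.1 in WT-MI, and at 53.3 in KO-Sham and 61.4 in WT-Sham. The MI ratio was 0.39 (0.14 to 0.63), from 307 and 256 UMIs, and so went against the label, whereas the Sham ratio was -0.20 (-0.44 to 0.03). Sequenced tags come from the 3′ end of an RNA and the floxed exon is not given in the sources used here, so tags outside the deleted part check nothing, and each direction below is that of the library labels. The gene with the symbol Nrf1, on chromosome 6, had a MI ratio of -0.05 (-0.24 to 0.14).

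Sex-linked genes differed between the libraries. Xist, the RNA that coats the inactive X chromosome, stood at 1585 CPM in KO-MI and 1010 in WT-MI, and at 775 in KO-Sham and 161 in WT-Sham. Its ratio was 0.65 (0.60 to 0.70) after MI and 2.27 (2.15 to 2.39) after Sham. All 4 Y-linked genes were lower in KO in both pairs, with Uty at 32.5 CPM in KO-MI and 75.7 in WT-MI, with a ratio of -1.22 (-1.48 to -0.96). Sex-linked genes thus differed along the genotype in both pairs, and the part of sex in the gene differences below was not tested.

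Most genes stood within a narrow band. Taking the 10780 genes that had at least 50 UMIs in the CM1 sums together, 95.9% differed by less than 1.5-fold, and the median ratio was 0.02. A gene was counted as past the fold where its ratio was at least 1.5-fold and its interval excluded no difference. By this rule 174 genes were higher in KO-MI (1.61% of those tested) and 146 were lower (1.35%). Among the 1878 genes with 1000 or more UMIs, 1 was higher (Xist) and 7 were lower past the fold, the latter being S100a9, S100a8, Hba-a1, Hba-a2, Hbb-bs, Hbb-bt and Psmd1. The interval alone excluded no difference for 9.13% of genes upward and 6.68% downward.

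**Figure D1:**
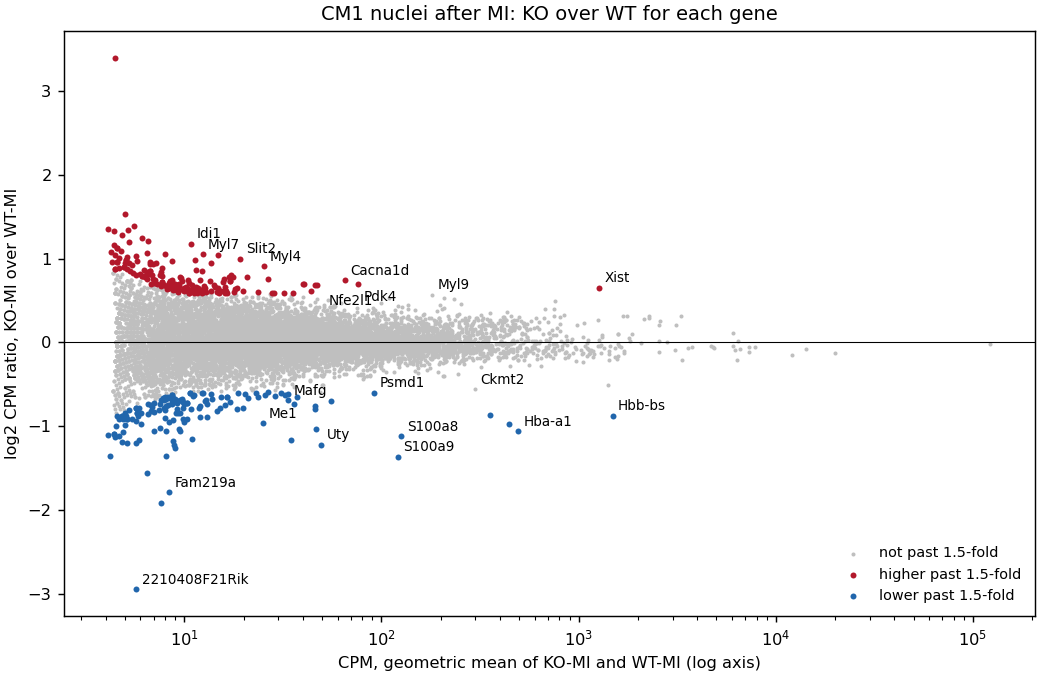
Each point is a gene with 50 or more UMIs over both CM1 sums; the x axis is the geometric mean CPM of KO-MI and WT-MI on a log scale and the y axis the log2 CPM ratio of KO-MI over WT-MI. Red points (174) were higher and blue points (146) lower past 1.5-fold; abundant genes on the right lie close to 0, apart from Xist above and Psmd1 and the hemoglobin and S100a genes below.

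The Sham pair gave wider differences, with 576 of 10910 genes higher (5.28%) and 358 lower (3.28%) past the fold and a median of -0.12. Of the 174 genes higher after MI, 159 had 50 or more UMIs in the Sham pair and 101 of these (63.5%) had a Sham ratio above 0, against 36.1% of all 10394 genes measured in both pairs. Of the 146 lower genes 100 were measured after Sham and 82 (82.0%) had a ratio below 0, against 63.9% of all genes. Genes past the fold in the same direction in both pairs numbered 20 upward, which is 12.6% of the 159 where all genes gave 5.35%, and 20 downward, which is 20% of the 100 where all genes gave 3.13%. The pairs share the genotype contrast and the direction of the sex-linked genes, and 4 of the 20 lower genes are Y-linked. Tyrobp, C1qb, Coro1a, Ctss and Lcp1, also among the 20, are genes of immune cells.

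Genes tied to Nrf1 were read next, as its partners, its antioxidant targets and the proteasome. Mafg, the small Maf partner with which CNC factors bind DNA, was at 26.5 CPM in KO-MI and 42.8 in WT-MI, and at 14.3 in KO-Sham and 25.3 in WT-Sham. Its ratio was -0.69 (-0.999 to -0.39) after MI and -0.82 (-1.23 to -0.42) after Sham, so that the KO library was the lower one of both pairs and WT-MI the highest of the 4. Me1, the cytosolic malic enzyme that makes NADPH, was at 18.04 CPM in KO-MI against 35.2 in WT-MI and at 17.3 in KO-Sham against 28.9 in WT-Sham. Its ratios were -0.96 (-1.33 to -0.61) and -0.74 (-1.11 to -0.37), the lowest of the antioxidant list after MI. Hmox1, heme oxygenase 1, was at 9.96 CPM in KO-MI and 16.2 in WT-MI, with a ratio of -0.70 (-1.22 to -0.20) after MI and -1.14 (-1.91 to -0.38) after Sham. Hmox1 is also strongly expressed by macrophages, some of whose genes were lower in KO-MI too (below).

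The list of antioxidant response targets was split. Fold and interval counts of lists take members with 50 or more UMIs, and medians those with 20 or more. Of the 21 antioxidant targets with 50 or more UMIs, 2 were lower past the fold (Me1 and Hmox1), where 1.35% of all genes were. An interval below 0 was found for 8 (38.1%) and above 0 for none (0), beside 6.68% and 9.13% of all genes. The median over 24 members was -0.05, beside 0.02 over all genes, with a range of -0.17 to 0.002 over the alternative settings. The 6 others with an interval below 0 were Gclm, the modifier subunit of glutathione synthesis (-0.57, -0.90 to -0.24), glutathione reductase Gsr (-0.42, -0.74 to -0.10), the autophagy receptor Sqstm1 (-0.40, -0.65 to -0.15), the exporter Abcc1 (-0.38, -0.68 to -0.08) and the ferritin genes Ftl1 (-0.24, -0.35 to -0.12) and Fth1 (-0.10, -0.18 to -0.02). In the Sham pair Gclm had a ratio of 0.34 (-0.02 to 0.70) and Gsr 0.02 (-0.34 to 0.38), and Fth1 was higher (0.25, 0.18 to 0.32). Of the 21 list members with 50 or more UMIs there, 3 were higher and 2 lower past the fold, where 5.28% and 3.28% of all genes were. An interval above 0 was found for 4 (19%) and below 0 for 3 (14.3%), beside 11.5% and 24.1% of all genes. The summed list stood at -0.12 (-0.17 to -0.08) after MI and 0.18 (0.13 to 0.22) after Sham, with a Sham median of -0.11. Whether the pairs differ in these genes was not tested. Nqo1, Txnrd1 and Gclc, further well-known targets, had ratios of 0.07 in the MI pair, with intervals that reach 0.67, 0.36 and 0.42. Nfe2l2, which encodes the related factor Nrf2, had a ratio of -0.11 (-0.32 to 0.09). Enzymes against superoxide and peroxide had a median of 0.02, and Cat, Sod1 and Sod2 all had intervals that include 0, whereas Gpx1, glutathione peroxidase 1, was lower (-0.34, -0.58 to -0.10) and Prdx2 higher (0.29, 0.14 to 0.44). In the Sham pair both were higher, Gpx1 at 0.48 (0.20 to 0.76) and Prdx2 at 0.59 (0.47 to 0.71). So were 12 of the 21 list members by their interval, with none (0) lower, beside 11.5% and 24.1% of all genes. The Sham median of that list was 0.32.

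The proteasome genes were read by subcomplex. The 19S cap, which recognises and unfolds ubiquitinated proteins, had 16 of 19 members below 0 and a median of -0.21. Of the 19 members 5 had an interval below 0 (26.3%) and 1 other above 0 (Sem1, 0.12, 0.0034 to 0.24), beside 6.68% and 9.13% of all genes. Psmd1, the largest subunit of the cap, was at 74.4 CPM in KO-MI and 112.8 in WT-MI, beside 68.7 in KO-Sham and 80.7 in WT-Sham. The ratio was -0.60 (-0.78 to -0.42) after MI, past the fold, and -0.23 (-0.43 to -0.03) after Sham. Psmd1 overlaps 4 other annotated genes and its count is uncertain to that extent. The others with an interval below 0 were Psmd11 (69.2 against 93.3 CPM, -0.43, -0.63 to -0.24), Psmd2 (-0.32, -0.61 to -0.02), Psmc1 (-0.29, -0.57 to -0.02) and Psmd4 (-0.26, -0.47 to -0.04). Psmd11 was also lower after Sham (-0.28, -0.49 to -0.07), whereas over the whole list the Sham median was 0.01. The catalytic 20S core had a median of -0.04 (0.011 after thinning each nucleus to 2000 UMIs), with 10 of 14 members below 0. Its 1 interval below 0 (Psma3, -0.18, -0.33 to -0.04) is a share of 7.14%, beside 6.68% of all genes. In the Sham pair 11 of the 14 core genes had an interval above 0, where 11.5% of all genes did and 24.1% had one below, and the median was 0.45. The difference between the subcomplexes and that between the pairs were not tested.

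Genes that activate the proteasome or extract Nrf1 from the membrane were lower in part. Psme4, the proteasome activator PA200, was at 179 CPM in KO-MI and 237 in WT-MI, with ratios of -0.40 (-0.53 to -0.28) after MI and -0.48 (-0.60 to -0.36) after Sham. Vcp, the ATPase p97 that pulls Nrf1 out of the membrane, was at 93.4 CPM against 119.7 in WT-MI, with ratios of -0.36 (-0.53 to -0.19) and -0.18 (-0.35 to -0.02). Nploc4, a cofactor of p97, was at 41.7 CPM against 59.3, with ratios of -0.51 (-0.76 to -0.26) and -0.41 (-0.68 to -0.14). These 3 genes were lower in the KO library of both pairs. Over the 22 members measured the median was -0.08 (0.067 in nuclei with few UMIs of other cell types). Of the 21 with 50 or more UMIs 3 had an interval below 0 (14.3%) and 3 above 0 (14.3%), beside 6.68% and 9.13% of all genes. The latter 3 included Psmg4 (0.37, 0.01 to 0.73) and Sel1l (0.30, 0.04 to 0.57).

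**Figure D2:**
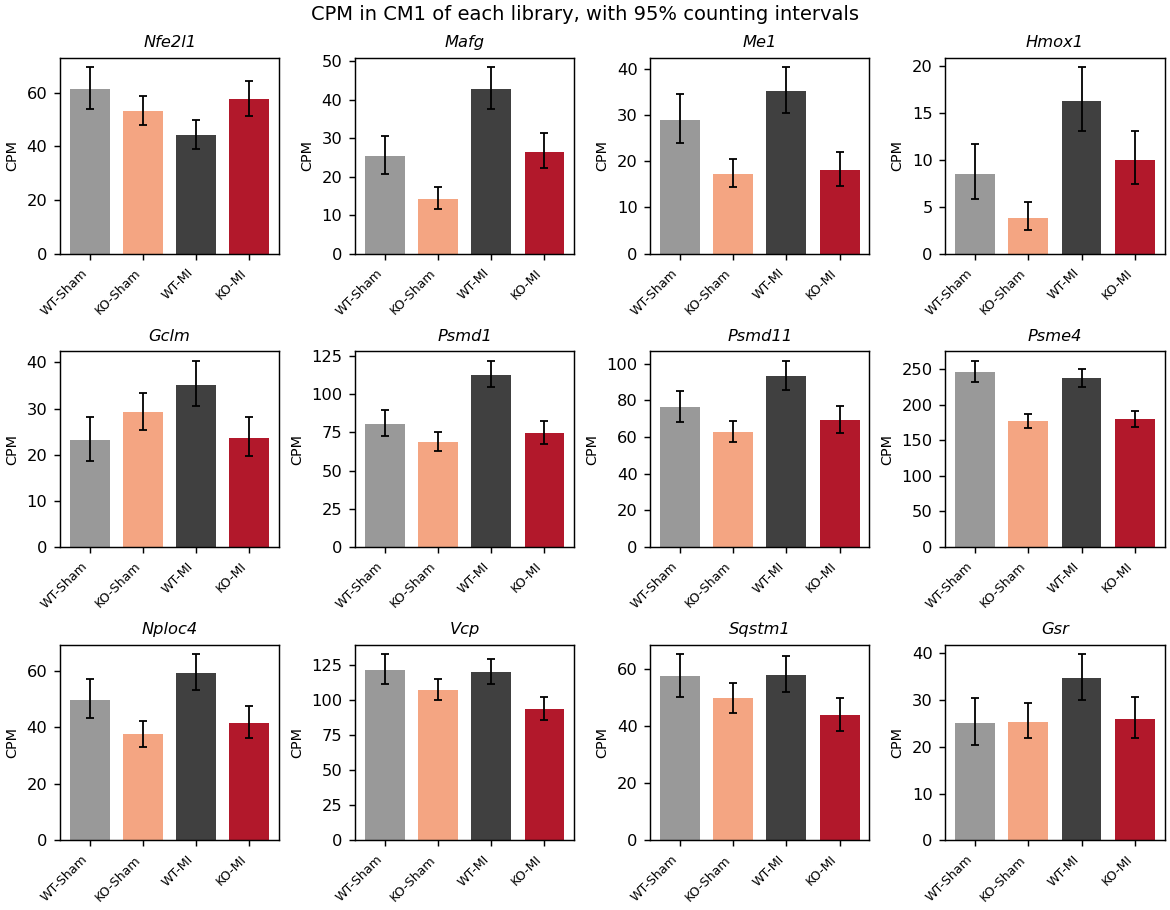
CPM of 12 genes of the Nrf1 pathway in the CM1 sum of each library, with 95% Poisson intervals as bars; each panel starts at 0. Mafg, Me1, Hmox1, Psmd1, Psmd11, Psme4, Nploc4 and Vcp were lower in KO than in WT of both pairs, Gclm and Gsr were lower in KO-MI than in WT-MI, and Nfe2l1 was higher in KO-MI than in WT-MI (57.7 and 44.1 CPM).

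The core letters of the antioxidant response element were looked for in the promoters of these genes, because the element is where Nrf1 binds. RefSeq windows on GRCm38.p6 from 250 bases before to 50 bases after each gene's start were searched for TGACNNNGC on both strands. The letters were found for 17.2% of the 8436 tested genes with a window, for 23.8% of 105 genes lower past the fold (16.04% to 33.1%) and for 18.9% of 132 higher ones (12.6% to 26.7%). Of the antioxidant targets 7 of 22 held them (31.8%), of the 19S genes 4 of 16 (25%), of the 20S genes 2 of 11 (18.2%) and of the CNC and partner factors 4 of 10 (40%). Genes lower past the fold in both pairs held them in 7 of 17 cases (41.2%, 18.4% to 67.1%), which include the Y-linked Eif2s3y and the immune gene C1qb, and genes higher in both in 3 of 17 (17.6%, 3.80% to 43.4%). Such shares are descriptions with wide exact (Clopper-Pearson) intervals, and a match is not a binding site.

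A selection of the matches upstream of the start is given below, each with 10 bases on either side, 5′ to 3′ on the gene's own strand, and with the matched 9 bases in capitals (the reverse form reads GC first). The first 7 belong to genes with a MI ratio below 0, with an interval that includes 0 for Adrm1 alone, and the last 4 to genes of the Nrf1 lists with intervals that include 0.
Mafg: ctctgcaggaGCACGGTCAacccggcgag
Gclm: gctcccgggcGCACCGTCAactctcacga
Vcp: tgcggccaatTGACGTGGCgttactaggc
Adrm1: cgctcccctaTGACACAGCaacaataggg
Btbd2: ccccgccccaTGACCACGCcctccgtggc
2210408F21Rik: ccacggctcgGCCTGGTCAgcttgaacca
C1qb: aggctggtcaGCGTCGTCAtttacagtaa
Nfe2l2: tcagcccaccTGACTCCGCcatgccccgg
Txnrd1: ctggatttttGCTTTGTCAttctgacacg
Psmb5: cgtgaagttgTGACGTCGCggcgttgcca
Mt2: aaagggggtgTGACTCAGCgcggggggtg

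The Mafg window lies at chr11:120633751-120633779, 222 bases before the start, and the Gclm window at chr3:122245413-122245441. The Vcp window lies at chr4:43000603-43000631 and the window of Adrm1, a ubiquitin receptor of the 19S cap, at chr2:180171416-180171444. The Btbd2 window lies at chr10:80656511-80656539, that of the noncoding RNA 2210408F21Rik at chr6:31220155-31220183 and that of the complement gene C1qb at chr4:136886285-136886313. The Nfe2l2 window lies at chr2:75704885-75704913, the Txnrd1 window at chr10:82859104-82859132, the Psmb5 window at chr14:54618024-54618052 and the Mt2 window at chr8:94172529-94172557. Adrm1 had a ratio of -0.51 (-1.04 to 0.02) in the MI pair. The catalytic subunit Psmb5 was at 0.05 (-0.15 to 0.26) and the metallothionein Mt2 at -0.04 (-0.41 to 0.33), so the letters stood both before genes with an interval below 0 and before genes with an interval that includes 0. Me1 and Psmd1 held no match in their windows.

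Among genes past the fold in both pairs, the lowest ratios came from loci outside the Nrf1 lists. 2210408F21Rik, an RNA annotated as a processed transcript (chr6:31220351-31337404, plus strand), was counted with 11 UMIs in KO-MI against 92 in WT-MI, and with 11 in KO-Sham against 47 in WT-Sham. The ratios were -2.94 (-3.99 to -2.03) and -2.92 (-4.01 to -1.95). Lncpint, a long noncoding RNA whose gene runs the other way and overlaps its start (chr6:31082565-31220488), was at 5.82 CPM in KO-MI against 13.6 in WT-MI, with a ratio of -1.23 (-1.87 to -0.61), and at -0.46 (-1.13 to 0.22) after Sham. The next measured genes on either side, Copg2 (-0.20 after MI, -0.28 after Sham) and Mkln1 (-0.08 and -0.18), did not share the deficit; they were chosen after their values were seen. Fam219a (chr4:41517691-41569538) was counted with 24 UMIs in KO-MI against 90 in WT-MI, with ratios of -1.78 (-2.50 to -1.12) and -1.46 (-2.08 to -0.84), while its neighbours Nudt2 and Il11ra1 stood at 0.33 and 0.18 after MI. Whether the mice differ in sequence or background at these loci was not tested. Further genes past the fold downward in both pairs included Ipmk, an inositol phosphate kinase (-0.69 and -0.63), and Btbd2 (-0.68 and -0.69).

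**Figure D3:**
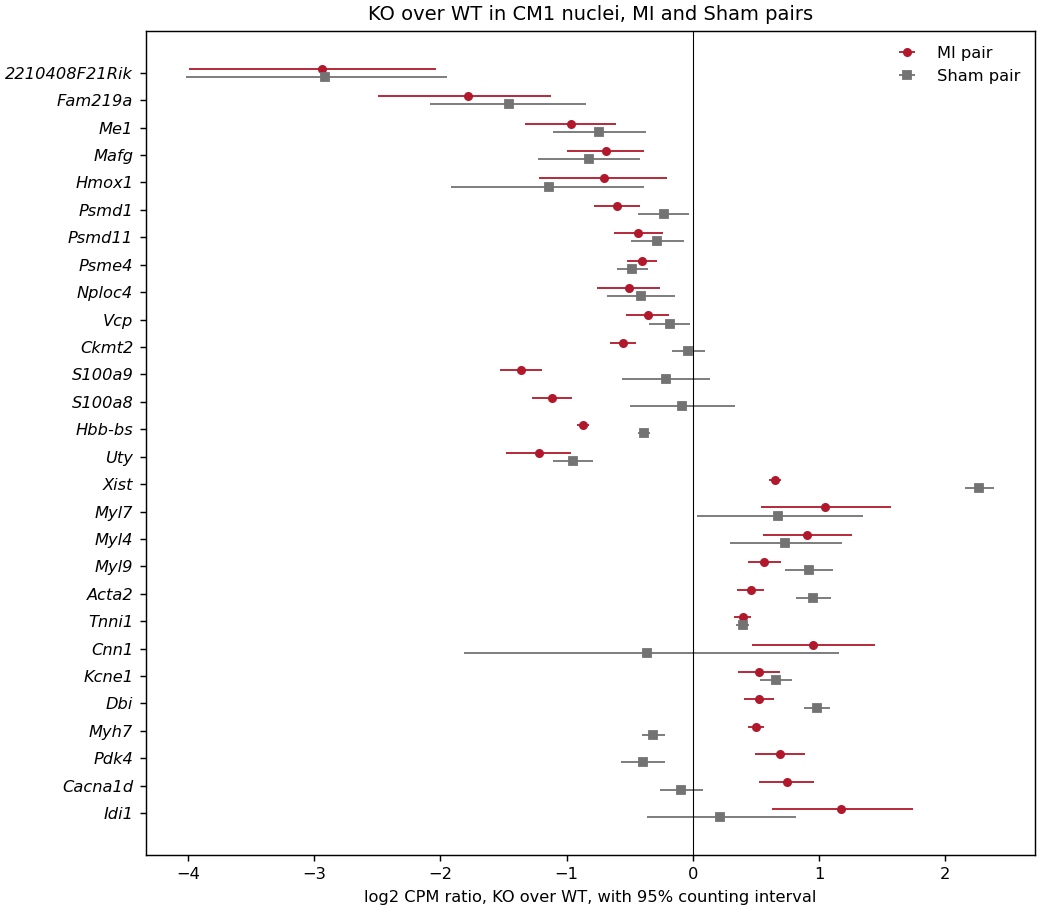
Log2 CPM ratios of KO over WT in CM1 nuclei for 28 named genes, with circles for the MI pair, squares for the Sham pair and bars for the 95% counting intervals. The top genes, from 2210408F21Rik to Vcp, lie left of 0 in both pairs, S100a9 and S100a8 lie further left in the MI pair than in the Sham pair, and Myh7 and Pdk4 lie on opposite sides of 0 in the pairs.

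Some genes of the immature or embryonic cardiomyocyte were higher in KO-MI. Of 16 list members measured, 15 had a ratio above 0, and the median was 0.28. An interval above 0 was found for 7, a share of 43.8% beside 9.13% of all genes. Past the fold were 3 (Myl7, Myl4 and Cnn1), where 1.61% of all genes were. In the Sham pair 6 of 15 members had an interval above 0 (40%) and 3 below (20%), beside 11.5% and 24.1% of all genes. The Sham median was 0.07. Myl7, the atrial regulatory light chain, was at 17.9 CPM in KO-MI and 8.62 in WT-MI, with a ratio of 1.05 (0.54 to 1.57). Myl4, the atrial and fetal essential light chain, was at 34.9 and 18.6 CPM, a ratio of 0.91 (0.56 to 1.26). Both were also past the fold in the Sham pair (0.68 and 0.73). Cnn1, a calponin of smooth muscle and early cardiomyocytes, was at 18.98 and 9.83 CPM, with a ratio of 0.95 (0.47 to 1.44), and had only 11 and 8 UMIs in the Sham pair. The more abundant Acta2 (298 and 217 CPM, 0.46, 0.35 to 0.57), Myl9 (220 and 149 CPM, 0.57, 0.44 to 0.70) and slow skeletal troponin I Tnni1 (772 and 587 CPM, 0.39, 0.33 to 0.46) were higher too, and in the Sham pair stood at 0.96, 0.92 and 0.40. The imprinted fetal genes Igf2, H19 and Mest had intervals that include 0. Atrial genes were summed to 2531 CPM in KO-MI and 2079 in WT-MI, mostly from Nppa. Myl7 and Myl4 belong to this atrial list as well, and a share of atrial nuclei in the KO-MI pool was not tested. The endothelial list was at 614 and 544 CPM, with 7 members above 0, 7 below and a median of 0.01, and the mural list at 299.7 and 301.7. In the Sham pair the endothelial list was at 891 CPM in KO and 509 in WT, and the mural list at 378 and 449.

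Genes of the contractile apparatus differed by smaller amounts. Of 36 sarcomere genes none (0) was past the fold, and the median was 0.11. An interval above 0 was found for 19 (52.8%) and below 0 for 6 (16.7%), beside 9.13% and 6.68% of all genes. Myh7, the slow myosin heavy chain that falls after birth, was at 898 CPM in KO-MI and 635 in WT-MI, with a ratio of 0.50 (0.44 to 0.56), whereas in the Sham pair it was at 314 and 390 CPM, a ratio of -0.31 (-0.41 to -0.22). It overlaps 5 other annotated genes. Tpm1 and Tnnc1, genes of the thin filament, were higher, with Tpm1 at the larger ratio (3704 and 2981 CPM, 0.31, 0.28 to 0.34) and Tnnc1 next (0.29, 0.25 to 0.33), and the long genes Ttn (11542 and 12775 CPM, -0.15, -0.16 to -0.13) and Dmd (-0.21, -0.23 to -0.19) were lower. The injury genes Nppa and Nppb, natriuretic peptides released under wall stress, stood at 2374 and 1961 CPM (0.28, 0.24 to 0.31) and at 827 and 736 CPM (0.17, 0.11 to 0.23). In the Sham pair their ratios were 0.79 and 1.38, at levels of 256 and 148 CPM for Nppa. Xirp2 (-0.39, -0.59 to -0.19) and the protease inhibitor Timp1 (-0.37, -0.57 to -0.18) of the same list were lower in KO-MI, and the list median was 0.03.

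Metabolic genes differed by small amounts. Nuclear genes of complex I were above 0 for 36 of 38 members, 29 with an interval above 0 (76.3%). Those of complexes II to V were above 0 for 42 of 43, 36 with an interval above 0 (83.7%), beside 9.13% of all genes. The medians were 0.23 in both lists, none (0) of these 81 genes was past the fold, and the Sham medians were 0.84 and 0.80. The 13 genes of the mitochondrial genome did not follow, with a median of -0.06 after MI and 0.46 after Sham. After MI 9 of them had an interval below 0 (69.2%), beside 6.68% of all genes. Cytosolic ribosomal proteins were above 0 for 74 of 80 members with a median of 0.15. Genes of fatty acid oxidation had a median of 0.17, and 2 of 37 members were past the fold upward, where 1.61% of all genes were. Pdk4, the kinase that shuts off pyruvate dehydrogenase, was at 97.0 CPM in KO-MI and 60.0 in WT-MI, with a ratio of 0.69 (0.49 to 0.89), beside 86.2 in KO-Sham and 113 in WT-Sham, a ratio of -0.39 (-0.57 to -0.22). Acot2, a mitochondrial thioesterase, had a ratio of 0.62 (0.10 to 1.16). Ucp3, a mitochondrial carrier controlled with Pdk4 by fatty acids, was at 0.51 (0.18 to 0.85) after MI and -0.54 (-0.75 to -0.33) after Sham. Pdk4 and Ucp3 thus stood above the control in the MI pair and below it in the Sham pair, and Ucp3 was chosen after its values were seen.

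The creatine kinases parted. Ckmt2, the mitochondrial creatine kinase of striated muscle, was at 245 CPM in KO-MI against 360 in WT-MI, with a ratio of -0.55 (-0.66 to -0.45) from 1306 and 2090 UMIs, and at -0.03 (-0.16 to 0.09) in the Sham pair. The cytosolic Ckm (0.36, 0.28 to 0.44) and Ckb (0.42, 0.19 to 0.66) were higher, and in the Sham pair stood at 0.77 and 0.53. Ckmt2 was the lowest of the energy shuttle list, in which 13 of 15 members were above 0, with a median of 0.20. In the other cardiomyocyte populations of the same libraries the Ckmt2 ratio was -0.47 (-0.81 to -0.14) in CM5, -0.46 (-0.94 to 0.02) in CM2 and -0.01 (-0.55 to 0.52) in CM4.

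**Figure D4:**
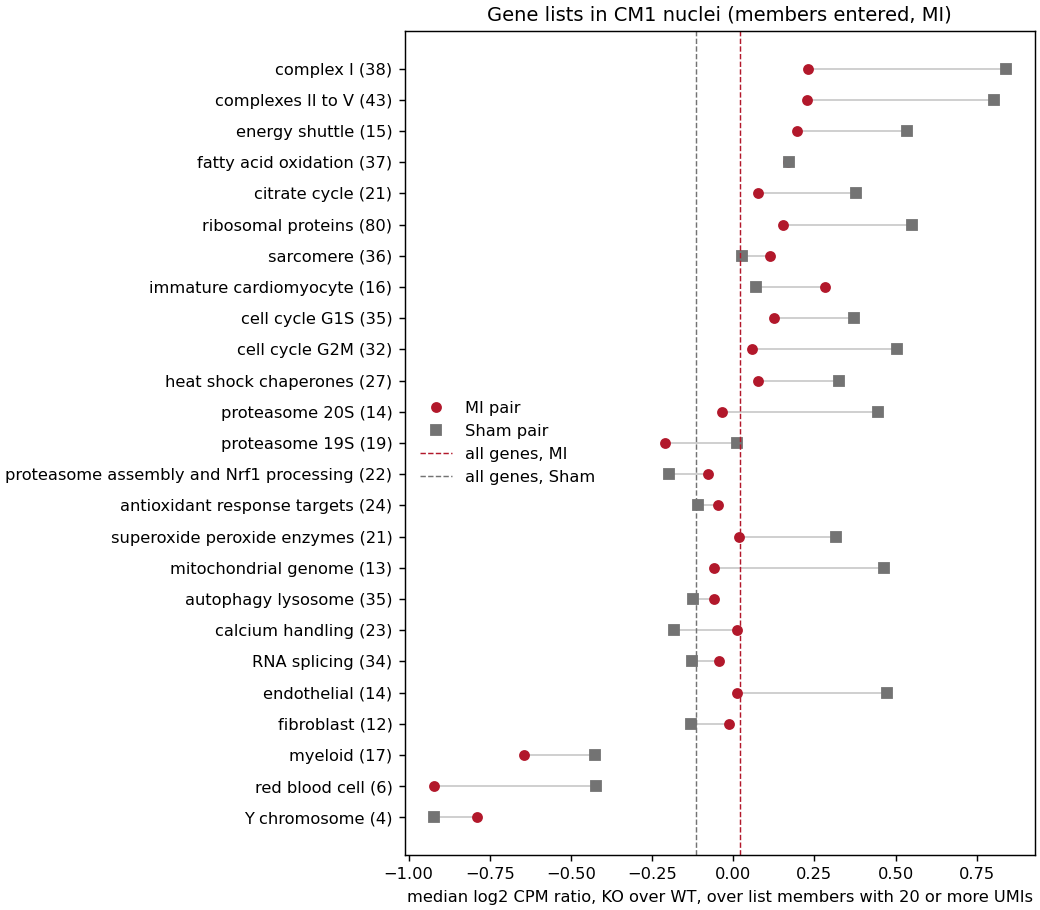
Median log2 CPM ratio of KO over WT for 25 gene lists in CM1 nuclei, circles for the MI pair and squares for the Sham pair, with the all-gene medians as dashed lines (0.02 and -0.12) and the number of members entered in brackets. The red blood cell, myeloid and Y lists lie far left in both pairs, and the nuclear respiratory chain and ribosomal lists lie right of 0, further in the Sham pair than after MI.

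Channels, stress genes and the cell cycle held few genes past the fold. Of 26 ion channel genes with 50 or more UMIs 2 were higher past the fold, where 1.61% of all genes were. They were Cacna1d, an L-type calcium channel of pacemaker and atrial cells (84.6 and 50.5 CPM, 0.74, 0.53 to 0.96), and Fgf12, a sodium channel partner (49 and 28 UMIs, 0.93, 0.23 to 1.66). Of the 49 Fgf12 UMIs 34 came from 1 nucleus and 93.9% from 10, so that its ratio rests on few nuclei. Cacna1d was at -0.09 (-0.26 to 0.08) in the Sham pair and overlaps 7 annotated genes. Kcne1, the subunit that slows the delayed rectifier, was higher in both pairs (0.52, 0.36 to 0.69, and 0.66, 0.54 to 0.78), and Kcnip2, a subunit of the transient outward current, was lower in both (-0.33, -0.61 to -0.06, and -0.54, -0.73 to -0.35). Calcium handling genes had a median of 0.01, with Ryr2 at -0.11 (-0.13 to -0.09) and Slc8a1 at -0.12 (-0.13 to -0.11). Chaperones had a median of 0.08. Of 26 with 50 or more UMIs 6 had an interval above 0 (23.1%) and none (0) below, beside 9.13% and 6.68% of all genes. Hspa5, the main chaperone of the endoplasmic reticulum, was at 0.25 (0.12 to 0.37). Cell cycle lists had medians of 0.12 for G1/S and 0.06 for G2/M. Of their 31 and 22 members with 50 or more UMIs, 1 and 2 were past the fold upward, where 1.61% of all genes were. These were Prim1 (0.62, 0.22 to 1.02), Birc5 (0.59, 0.06 to 1.12) and Ccna2 (1.01, 0.16 to 1.89). Mki67 was at 13.2 CPM in KO-MI and 13.1 in WT-MI (0.01, -0.48 to 0.49). The summed counts gave 0.095 (0.036 to 0.153) for the G1/S list and 0.13 (0.04 to 0.22) for the G2/M list, with 2 and 3 intervals above 0 and none (0) below. The intervals above 0 made up 6.45% and 13.6% of the members with 50 or more UMIs, beside 9.13% of all genes. In the Sham pair the medians were 0.37 and 0.50, and 6 and 7 members were past the fold upward, where 5.28% of all genes were. Ccna2 was past the fold there too (1.16, 0.35 to 2.05).

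The highest ratios in KO-MI among genes with 100 or more UMIs were scattered over pathways. Idi1, an enzyme of sterol synthesis, was at 16.4 CPM in KO-MI and 7.24 in WT-MI, with a ratio of 1.17 (0.63 to 1.74), and at 0.22 (-0.36 to 0.82) after Sham. 9330158H04Rik, a long noncoding RNA, was higher in both pairs (1.04, 0.57 to 1.51, and 1.32, 0.75 to 1.93), as was Aldh1b1, a mitochondrial aldehyde dehydrogenase (0.98, 0.45 to 1.52, and 0.65, 0.30 to 1.003). Dbi, the acyl-CoA binding protein, was at 248 and 172 CPM (0.53, 0.41 to 0.65) and at 0.98 after Sham. Slit2, a secreted guidance ligand, had a ratio of 1.0 (0.59 to 1.41) with 145 and 79 UMIs, of which 43.4% in KO-MI came from 10 nuclei. A more extreme case under the limit of 100 UMIs, chosen after its values were seen, was Zfp804b, with 77 UMIs in KO-MI against 8 in WT-MI, where 49 of the 77 came from 1 nucleus.

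Genes of other cell types were among those past the fold. Lists of other cell types held 66 of the genes tested (0.612%), 13 of the 146 lower genes (8.90%) and 3 of the 174 higher ones (1.72%), and the difference between these shares was not tested. The 3 higher ones were Myl7 and Myl4 of the atrial list, also on the immature cardiomyocyte list, and Cyyr1 of the endothelial list. All 18 listed myeloid genes had UMIs in both libraries. Of the myeloid list 8 of the 16 members with 50 or more UMIs were lower past the fold, where 1.35% of all genes were. The median over 17 was -0.64, at a summed level of 522 CPM in KO-MI and 822 in WT-MI. S100a9 and S100a8, the calprotectin subunits of neutrophils, were at 75.3 against 194 CPM (-1.36, -1.53 to -1.20) and at 85.7 against 186 CPM (-1.12, -1.28 to -0.96). The Sham libraries held far less of both, with 23.9 CPM of S100a9 in KO-Sham and 27.7 in WT-Sham (-0.22, -0.56 to 0.14). The neutrophil genes Retnlg (-1.91, -2.67 to -1.21), Lcn2 (-1.26, -1.91 to -0.65) and Stfa2l1 (-1.35, -2.04 to -0.70), of which the last belongs to a family of near-identical copies, were lower as well. The macrophage genes Lyz2 (-0.69, -0.93 to -0.46), Cd68 (-0.84, -1.44 to -0.25), C1qb (-0.64, -1.01 to -0.28) and Arg1 (-0.60, -0.97 to -0.23) followed. Others of the list had intervals that include 0, namely Adgre1 (-0.72), C1qa (-0.32), Mrc1 (-0.25), Cx3cr1 (-0.21), Spp1 (-0.04) and Csf1r (0.17). Red blood cell genes stood at 2029 CPM in KO-MI and 3836 in WT-MI, with Hbb-bs at 1101 and 2014 CPM (-0.87, -0.92 to -0.83) and Hba-a1, which has a near-identical copy, at 341 and 709 CPM (-1.06, -1.14 to -0.98). Hbb-y, the embryonic globin, was at 0 UMIs in both libraries. Fibroblast genes were at 1305 and 1346 CPM.

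The nuclei had been selected as cardiomyocytes, and whether these UMIs came from free RNA, from adhering cells or from blood left in the tissue was not tested. The same direction was seen in the CM5 nuclei of the same libraries, with S100a9 at -0.92 (-1.24 to -0.61) and Hbb-bs at -0.64 (-0.73 to -0.55), and in those of CM2 (-0.97 and -2.98) and CM4 (-0.90 and -1.24). Among nuclei with a low share of other-cell UMIs, at or under the median of 0.56% for both libraries together, 904 of 1308 remained in KO-MI and 458 of 1415 in WT-MI. In these nuclei Psmd1 was at -0.62 (-0.87 to -0.36), Ckmt2 at -0.64 (-0.78 to -0.51) and Me1 at -0.64 (-1.14 to -0.14), whereas Mafg was at -0.36 (-0.78 to 0.06) and Hmox1 at -0.51 (-1.19 to 0.19), with intervals that include 0. S100a9 (-1.03, -1.29 to -0.77) and Hbb-bs (-0.53, -0.60 to -0.46) were still lower in KO-MI in the same nuclei. Both genes are on the lists that set the cut, so their ratios there are not independent of it. The restriction thus did not remove the difference in UMIs of other cells.

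Ratios also varied with gene span. In the MI pair the median went from 0.17 for genes up to 3000 bases long (438 genes) over 0.05 for those of 10000 to 30000 bases (3394) to -0.06 above 300000 bases (356). In the Sham pair the same steps were 0.43, -0.07 and -0.25. The median span was 8542 bases for complex I, 6751 for complexes II to V and 3266 for ribosomal proteins. It was 28066 for all genes tested and 169514 for calcium handling. Genes of 3000 to 10000 bases had a median of 0.11 after MI and 0.15 after Sham. Beside these, the medians were 0.23 and 0.84 for complex I, 0.23 and 0.80 for complexes II to V and 0.15 and 0.55 for ribosomal proteins. Calcium handling stood at 0.01 and -0.18, beside -0.04 and -0.23 for genes of 100000 to 300000 bases. The 19S and 20S lists had median spans of 13252 and 16620 bases. Their median ratios after MI were -0.21 and -0.04, beside 0.05 for all genes of 10000 to 30000 bases. After Sham they were 0.01 and 0.45, beside -0.07 for that class. The part of span in these lists was not tested.

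**Figure D5:**
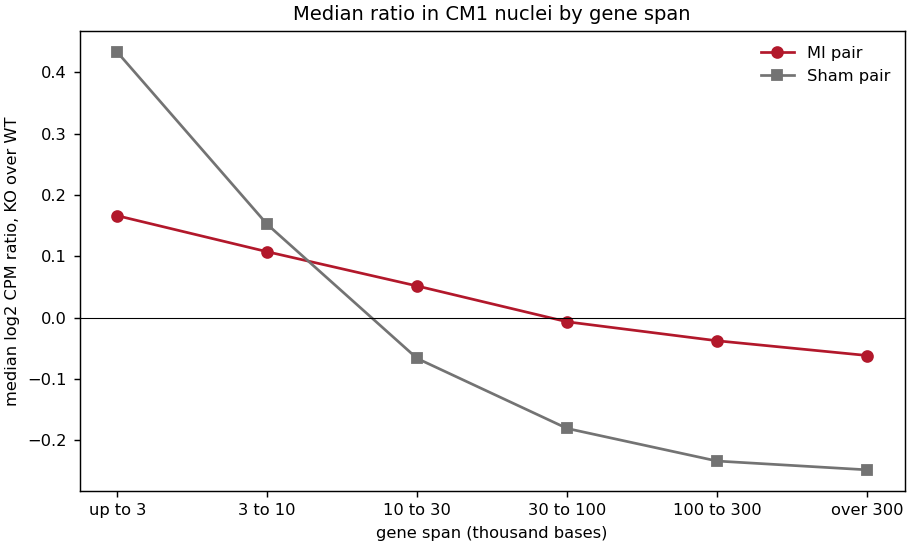
Median log2 CPM ratio of KO over WT in CM1 nuclei for genes in 6 classes of annotated span, circles for the MI pair and squares for the Sham pair. The median is lower for longer genes in both pairs, going from 0.17 to -0.06 after MI and from 0.43 to -0.25 after Sham.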

How the data were processed

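The authors deposited raw UMI counts for 22574 genes and 8585 nuclei with, per nucleus, its library, population label, transferred label with a score (a fraction) and percent of mitochondrial UMIs. According to the methods, Cell Ranger (version not given in the sources used here) had aligned reads to a pre-mRNA reference of mm10/GRCm38, doublets found by Scrublet and nuclei outside 200 to 2500 genes had been dropped, and only cardiomyocyte clusters were kept, with CM3 merged into CM1. Labels and methods name different kit versions. Of the per-nucleus columns, 9 were not used.

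Counts were summed over CM1 nuclei and divided by the sum (numpy 2.4.6, pandas 2.3.3). Ratio intervals are exact conditional binomial 95% intervals (scipy 1.17.1), and those of CPM are Poisson. The total depth behind the CM1 sums was 5322066, 5799715, 7335268 and 4151418 UMIs (KO-MI and WT-MI, then KO-Sham and WT-Sham). With 1 pool per group no test and no p-value was possible. A list median takes members with 20 or more UMIs, and its fold and interval counts those with 50 or more. Named genes are the 12 highest and lowest with 100 or more UMIs past the fold, the 10 highest and lowest with 1000 or more, the 10 largest CPM differences each way, 16 named in the study's text, list leaders and members past the fold, markers of other cells and sex chromosomes, and genes past the fold in both pairs. Further genes given above, among them Vcp, Nploc4, Gclm, Psmd11, Gpx1, Ckm and Xirp2, lay outside these rules and were singled out for the text. The members, lists and rules were chosen with earlier results of these data known. Positions are from GENCODE M21 (22122 of 22574 symbols, 98.0%). Strand use in counting is not stated, so overlapping genes are uncertain. Distinct barcodes found in more than 1 library numbered 18, and 1 was shared by both CM1 sets. The steps were tested on simulated data. Alternatives covered scaling (TMM in edgeR 4.0.16, size factors, a reduced total), thinning, nuclei and filters.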

Additional observations from a re-analysis of the deposited data

Results flagged for a closer look

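With 1 library per group no sample could stand apart from its replicates. The results below had MI and Sham ratios on opposite sides of 0, each beyond its counting interval (for lists, beyond that of the summed counts), and none of these differences between the pairs was tested. Pdk4 had a ratio of 0.69 after MI and -0.39 after Sham, and Myh7 0.50 and -0.31. Gm42418, annotated as a long noncoding RNA and overlapping 2 annotated genes, stood at -0.50 and 0.10. The ferritin gene Fth1 was at -0.10 and 0.25, and mt-Co3 of the mitochondrial genome at -0.0766 and 0.50. Trim55, a ubiquitin ligase of the sarcomere, was at 0.0897 and -0.29, and the collagen gene Col3a1 at 0.11 and -0.13. Among lists the 19S proteasome had medians of -0.21 and 0.01, the mitochondrial genome -0.0604 and 0.46, and iron handling -0.0785 and 0.0165. The all-gene medians of the pairs were 0.02 and -0.12, and a CM1 nucleus of KO-Sham held fewer UMIs (median 2632) than one of any other library.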

How the results depend on the processing

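The count of 174 genes higher past the fold ranged from 136 to 218 under the 8 alternatives of scaling and nuclei, and the count of 146 lower genes from 96 to 163, the lowest in nuclei with a low share of other-cell UMIs, where 34 of the 146 were still called. Thinning each nucleus to 2000 UMIs gave 159 and 116, of which 54 and 48 were among the main calls, at 8846 genes tested. Without a filter on UMIs 284 were higher and 264 lower, with 200 or more UMIs 22 and 30, and at 2-fold 25 and 31. The all-gene median of 0.02 ranged from -0.01 to 0.04. Size factors gave 136 higher and 163 lower genes, and TMM 153 and 155, so the surplus of higher genes turned around with the scaling. With the 10 nuclei richest in a gene left out, 122 of the 174 and 109 of the 146 calls remained. Of 1367 ratios of named genes recomputed, 89 lay outside the main counting interval and none (0) of the ratios past the fold reversed. Of 441 list medians 25 moved by 0.1 or more and 3 reversed, the lymphoid list (0.26 with low other-cell nuclei and 0.0138 with the richest nuclei left out, 1 member each) and the neural and glial list (0.0273 with low other-cell nuclei, 2 members). No paired analysis was possible because each group had 1 library. Depth limits the genes under 100 UMIs most, where 1 nucleus can decide a ratio, as in Zfp804b.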
